A study of Mus musculus with 16 samples.

Results

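Blood vessel genes were followed in cultured mouse neurons through 10 genes: Rgs5, Pdgfrb, Abcc9, Notch3, Cspg4 and Vtn, which mark pericytes, and Pecam1, Cldn5, Flt1 and Kdr, which mark endothelial cells. They were picked by symbol from the 45724 genes of the deposited table, by a rule that sets no threshold on a measured value, though earlier results of these data were known. All 16 libraries of the series were used. The cells were primary neurons from postnatal day 0 brain of C57BL/6 mice, and total RNA was sequenced from 4 libraries of each of 4 groups. The groups were neurons given NP24, neurons given Tβ4, neurons given Tβ10, and controls, which per the series' design text received the vehicle DPBS (Dulbecco's phosphate-buffered saline). The design text calls the peptides products of the subcommissural organ, a gland in the roof of the brain ventricles. Tβ4 and Tβ10 belong to the β-thymosins, a family of small peptides known for holding monomeric actin. Peptide doses and exposure times are not given in the sources used here. Nothing in the labels says that the libraries of a group came from separate cultures, so p-values measure the spread between these samples, which may be technical.

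Capillaries of the brain consist of a tube of endothelial cells, joined by tight junctions into the blood-brain barrier, and of pericytes, mural cells wrapped around that tube inside a shared basement membrane. Endothelial cells recruit pericytes by secreting platelet-derived growth factor B, which binds the receptor encoded by Pdgfrb, and VEGF from surrounding tissue acts on endothelial cells through the receptors encoded by Flt1 and Kdr. Neuron cultures made from whole tissue can carry such cells over, and several of these genes are also used by other cells: Cspg4 by oligodendrocyte precursors, Pdgfrb by fibroblasts, and Pecam1 by some blood and immune cells.

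Rgs5 and Pdgfrb carried the differences between groups. Both were lower in NP24 and in Tβ10 libraries than in controls. Between peptides, both were lower in NP24 than in Tβ4 libraries and higher in Tβ4 than in Tβ10 libraries. With no library left out, no other of the 10 genes that passed the filter on low values had a limma adjusted p under 0.05 in any of the 6 comparisons.

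Reads assigned to genes ranged from 11642242 to 38254320 per library, and 1 read was worth 0.536 to 1.71 normalized counts, the unit of the values below (gene counts divided by 1 size factor per library). The labelled cell type was present: all 14 neuron markers were detected in all 16 libraries, with a summed 98228 ± 2199 normalized counts in NP24 libraries, 80726 ± 11471 in Tβ4 libraries, 95856 ± 7929 in Tβ10 libraries and 85835 ± 4240 in controls (mean ± SD, n = 4). Mitochondrial ribosomal RNA took 7.15 ± 1.03% of reads in NP24 libraries, 15.3 ± 6.71% in Tβ4 libraries, 7.20 ± 1.96% in Tβ10 libraries and 11.3 ± 2.07% in controls. Tβ4 library 1 stood apart in its mitochondrial share and its vascular genes. Its share was 24.3%, it held the most detected genes (38072), and it was the highest of the 16 libraries for 6 of the 10 vascular genes, against 16.2% of all genes tested over the 16 libraries. This was not particular to vascular genes. It was also highest for 83.3% of listed fibroblast and meningeal, 84.6% of microglia and macrophage and 7.14% of neuron markers. Over all genes, Tβ4 library 2 differed most from its group. The chi-square per degree of freedom between read counts was 73.3 to 183 in its pairs and 28.2 to 59.5 between the other Tβ4 libraries. Its mitochondrial share, 8.25%, was the lowest of the Tβ4 group. Without Tβ4 library 2, 354 genes passed for Tβ4 against controls in limma, and 0 with it.

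The mural and endothelial markers differed in how well they were detected. Per kilobase of exon, Pdgfrb averaged 39.8 normalized counts over the 16 libraries, Notch3 averaged 37.0, Rgs5 averaged 35.2 and Cspg4 averaged 32.8, which placed them between the 65.6th and the 68.0th percentile of genes. Neighbours in this order differed by less than their spread over libraries: in controls, Pdgfrb had 39.9 ± 5.24, Cspg4 33.7 ± 8.99, Notch3 32.9 ± 6.60 and Rgs5 29.2 ± 11.1 normalized counts per kilobase (mean ± SD, n = 4). Pecam1 followed at 9.64 per kilobase. Abcc9, Flt1 and Vtn lay together at 3.53, 3.27 and 3.16 per kilobase. Kdr, at 1.01, and Cldn5, at 0.335, were the lowest.

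**Figure D1:**
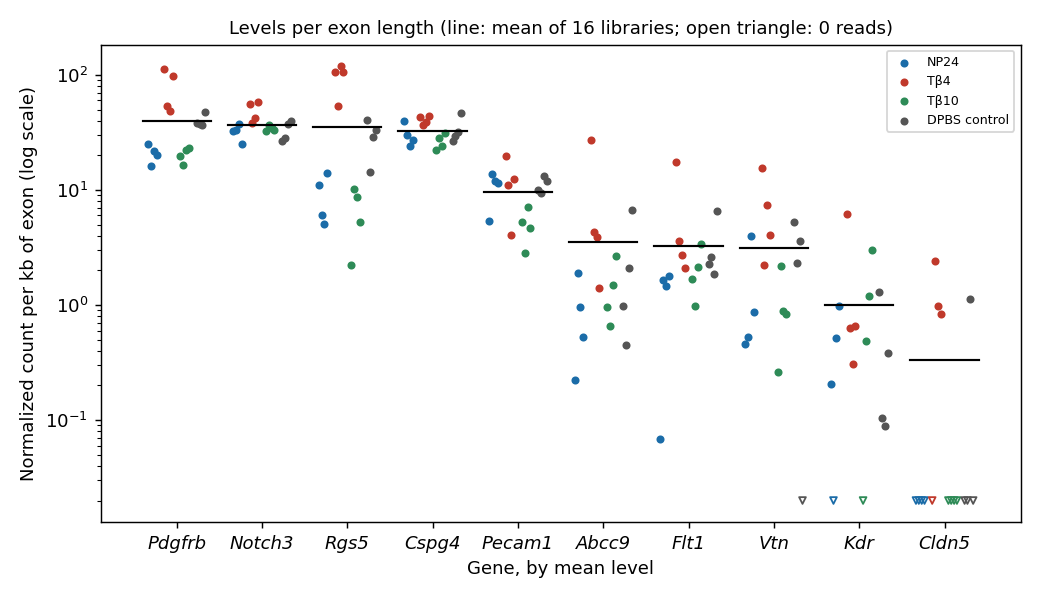
Normalized count per kilobase of exon (log scale) of the 10 vascular genes, ordered by their mean over 16 libraries (line). Points are libraries coloured by group and open triangles mark libraries with 0 reads. Pdgfrb, Notch3, Rgs5 and Cspg4 average 32.8 to 39.8, and Cldn5 averages 0.335.

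Cldn5, which encodes the main claudin of the brain endothelial tight junction, had 8 reads in the whole series: 6 in Tβ4 libraries, 2 in control library 3, and 0 in the NP24 and Tβ10 libraries. Detection of the 25 other listed endothelial genes was uneven. Over the 16 libraries Sox17 had 10 reads, Ly6c1 had 3, Ly6a had 5, Tie1 had 43 and Cdh5, which encodes VE-cadherin, had 133. Erg, an endothelial transcription factor, had 656, Tek, which encodes the angiopoietin receptor Tie2, had 646, Vwf had 401 and Eng had 385, each with reads in every library. On the mural side, Kcnj8, which encodes the pore of the potassium channel that Abcc9 regulates, had 22 reads, and Des, which encodes desmin, had 62. At the depth of Cldn5, Sox17 or Kcnj8 a change was not detectable.

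Promoters are shown for 3 genes. They are Rgs5, the member with the largest called differences, and Notch3, a mural gene of similar level with no difference called by limma with all libraries in. The third is Flt1, an endothelial gene with the highest value of its group in the same library as Abcc9. The windows come from RefSeq (GRCm38.p6), run 250 bases before to 50 bases after the annotated start, and are written 5′ to 3′ on the gene's strand. They are chr1:169655251-169655550 (plus strand) for Rgs5, chr17:32166841-32167140 (minus strand) for Notch3 and chr5:147725962-147726261 (minus strand) for Flt1. Capitals mark matches to a searched motif on either strand.
Rgs5: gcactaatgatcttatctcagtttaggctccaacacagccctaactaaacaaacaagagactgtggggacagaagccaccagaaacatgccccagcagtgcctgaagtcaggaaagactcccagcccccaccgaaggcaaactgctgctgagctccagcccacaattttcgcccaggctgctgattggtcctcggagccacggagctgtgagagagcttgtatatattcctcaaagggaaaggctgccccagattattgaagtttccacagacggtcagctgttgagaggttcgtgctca
Notch3: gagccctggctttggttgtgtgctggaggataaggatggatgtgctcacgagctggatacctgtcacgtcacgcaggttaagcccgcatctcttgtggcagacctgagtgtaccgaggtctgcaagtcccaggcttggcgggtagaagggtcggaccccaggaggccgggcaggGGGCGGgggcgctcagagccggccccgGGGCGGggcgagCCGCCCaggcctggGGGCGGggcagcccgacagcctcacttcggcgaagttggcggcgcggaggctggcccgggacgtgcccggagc
Flt1: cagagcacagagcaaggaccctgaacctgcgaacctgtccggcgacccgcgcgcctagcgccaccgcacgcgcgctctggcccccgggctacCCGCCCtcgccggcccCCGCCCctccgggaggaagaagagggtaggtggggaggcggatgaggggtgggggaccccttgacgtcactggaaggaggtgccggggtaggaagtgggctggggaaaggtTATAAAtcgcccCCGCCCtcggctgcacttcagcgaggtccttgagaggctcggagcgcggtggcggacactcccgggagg
The motifs searched were the RBP-J core TGGGAA, the GC box GGGCGG, the TATA box TATAAA, an ETS site CCGGAAGT, a forkhead site TGTTTAC and the CArG box, on both strands. Of all 32851 promoter windows, 25.6% held the RBP-J core, 35.7% the GC box, 13.6% the TATA box, 3.89% the ETS site, 3.65% the forkhead site and 1.63% the CArG box. The Rgs5 window held 0 matches and 52.3% GC. The Notch3 window held 4 GC boxes and 70.0% GC. The Flt1 window held 3 GC boxes and a TATA box at bases -31 to -26 from the start, with 70.7% GC. A match is a description of the letters, and the absence of one says nothing of a factor. Of the 10 genes, 8 had a window in the table; Pdgfrb and Pecam1 had none.

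Rgs5 encodes a GTPase-activating regulator of G protein signalling and is among the most selective pericyte transcripts of brain (chromosome 1, bases 169655501 to 169695813 of GRCm38, plus strand). It had 50.03, 27.7, 23.2 and 64.0 normalized counts in the NP24 libraries, 478, 242, 539 and 485 in the Tβ4 libraries, 10.2, 46.6, 39.6 and 23.9 in the Tβ10 libraries, and 185, 64.6, 132 and 150 in the controls. The Tβ4 libraries were the 4 highest of the series, and no NP24 or Tβ10 library reached the lowest control, though the highest NP24 library came close to it. Rgs5 was 3.21-fold lower in NP24 libraries than in controls (log2 difference -1.68 ± 0.37 SE, limma adjusted p = 0.0179) and 4.62-fold lower in Tβ10 libraries (-2.21 ± 0.43, limma adjusted p = 0.0242). In Tβ4 libraries it was 1.74 ± 0.32 higher on the log2 scale (95% interval 1.05 to 2.43), which did not pass adjustment over all genes (limma adjusted p = 0.409), although the groups did not overlap. In bulk RNA, fewer cells of a type and less RNA per cell cannot be told apart.

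The peptides were also set against each other directly. Rgs5 was 10.7-fold lower in NP24 than in Tβ4 libraries (log2 difference -3.42 ± 0.43, limma adjusted p = 0.000267). It was 15.4-fold higher in Tβ4 than in Tβ10 libraries (3.95 ± 0.43, limma adjusted p = 8.81e-05). Leaving out Tβ4 library 1 gave -3.36 (adjusted p = 0.00239) and 3.88 (adjusted p = 0.00107). NP24 and Tβ10 libraries did not differ detectably: the log2 difference was 0.52, with an interval of -0.37 to 1.42.

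Pdgfrb encodes the platelet-derived growth factor receptor β, the receptor through which endothelium recruits pericytes (chromosome 18, bases 61045150 to 61085061, plus strand). NP24 libraries had 137, 88.5, 118 and 109 normalized counts, Tβ4 libraries had 618, 293, 268 and 531, Tβ10 libraries had 108, 91.0, 121 and 128, and controls had 208, 205, 201 and 262. As with Rgs5, the 4 Tβ4 libraries were the highest, and no NP24 or Tβ10 library reached the lowest control. Pdgfrb was 1.93-fold lower in NP24 libraries than in controls (-0.95 ± 0.21 on the log2 scale, limma adjusted p = 0.0166) and 1.95-fold lower in Tβ10 libraries (-0.97 ± 0.20, limma adjusted p = 0.0326). In Tβ4 libraries the difference from controls was 0.88 ± 0.25 (interval 0.33 to 1.43, limma adjusted p = 0.458).

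Between peptides, Pdgfrb was 3.56-fold lower in NP24 than in Tβ4 libraries (-1.83 ± 0.24, limma adjusted p = 0.000353) and 3.59-fold higher in Tβ4 than in Tβ10 libraries (1.84 ± 0.24, limma adjusted p = 0.000315). Without Tβ4 library 1 these were -1.62 (adjusted p = 0.00267) and 1.64 (adjusted p = 0.00211). NP24 and Tβ10 libraries lay within 0.01 of each other on the log2 scale, with an interval of -0.49 to 0.51, so a difference of up to about 0.51 either way could not be seen.

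**Figure D2:**
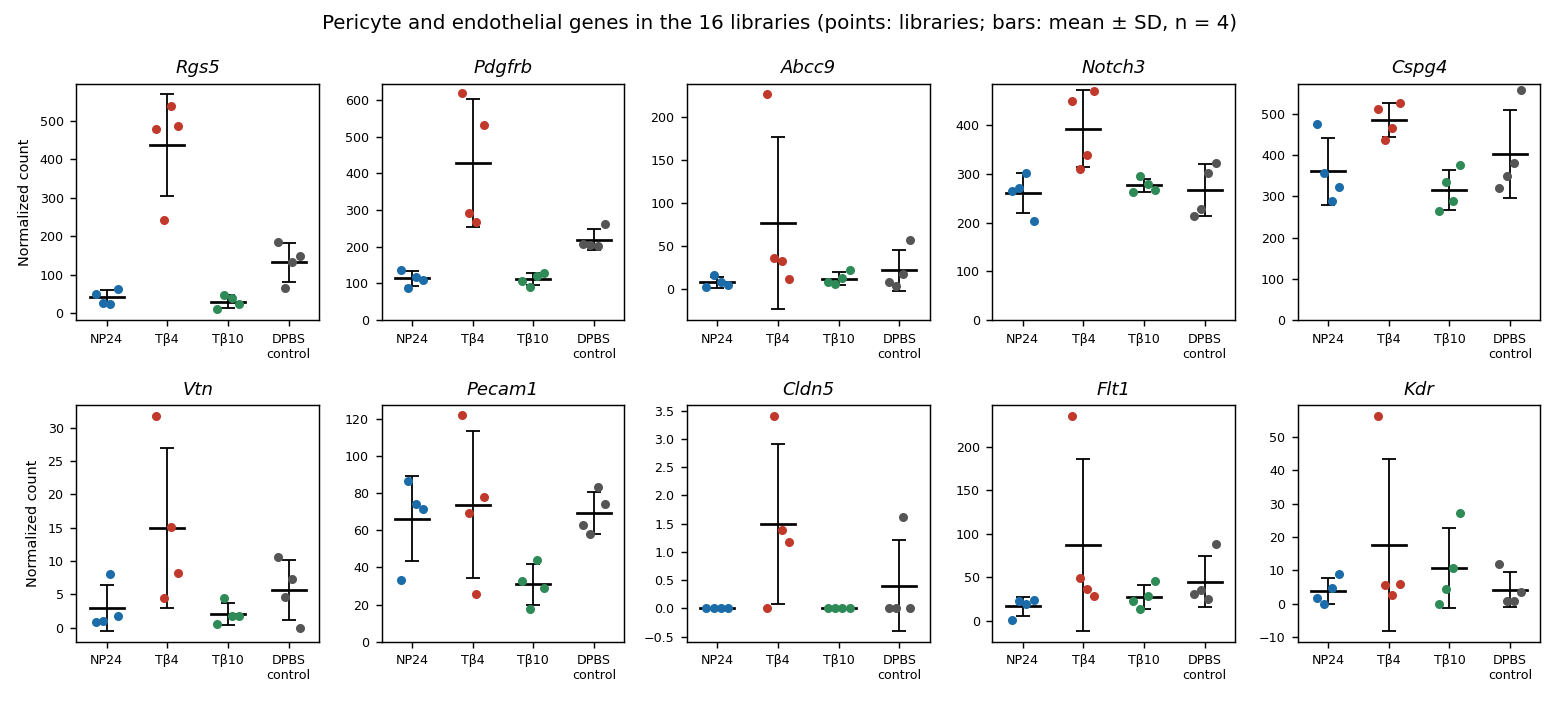
Normalized counts of the 10 vascular genes in each library (points), with group mean ± SD (bars, n = 4); groups run NP24, Tβ4, Tβ10 and DPBS control from left to right, and each panel has its own axis. The 4 Tβ4 libraries are the highest of the 16 for Rgs5 (242 to 539) and for Pdgfrb (268 to 618), whereas 1 Tβ4 library sets the top of the Abcc9, Flt1 and Kdr panels.

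With no library left out, limma made no call for the other mural genes of similar level, Notch3 and Cspg4. DESeq2 called Notch3 between NP24 and Tβ4 (adjusted p = 0.0387) and Cspg4 between Tβ4 and Tβ10 (0.0441). Limma without Tβ4 library 2 called each in the same comparison (adjusted p = 0.0280 and 0.0420). Notch3 encodes the Notch receptor of mural cells (chromosome 17, bases 32120820 to 32166852, minus strand). It had 265, 271, 301 and 204 normalized counts in NP24 libraries, 450, 311, 339 and 471 in Tβ4 libraries, 264, 295, 279 and 268 in Tβ10 libraries, and 214, 228, 301 and 322 in controls. NP24, Tβ10 and control libraries covered the same range, and 3 of the 4 Tβ4 libraries lay above it. The log2 differences from controls were -0.02 for NP24 (interval -0.40 to 0.35), 0.56 for Tβ4 (0.14 to 0.98, limma adjusted p = 0.553) and 0.08 for Tβ10 (-0.28 to 0.44). NP24 libraries lay below all Tβ4 libraries, with a difference of -0.58 that did not pass (limma adjusted p = 0.0962). The antisense gene Gm17276 shares 488 bases, 6.03% of the exon bases of Notch3, and the strand setting of the read counting is not given in the sources used here, so some reads may belong to it.

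Cspg4 encodes the NG2 proteoglycan of pericytes and oligodendrocyte precursors (chromosome 9, bases 56865033 to 56899870, plus strand). It had 475, 357, 289 and 323 normalized counts in NP24 libraries, 512, 437, 467 and 528 in Tβ4 libraries, 264, 335, 290 and 375 in Tβ10 libraries, and 320, 350, 381 and 559 in controls. Its highest library was a control, and the Tβ4 libraries lay above all Tβ10 libraries. Cspg4 differed from controls by -0.15 in NP24 libraries (interval -0.52 to 0.23), 0.30 in Tβ4 libraries (-0.08 to 0.68) and -0.33 in Tβ10 libraries (-0.71 to 0.05). Between Tβ4 and Tβ10 the difference was 0.63 ± 0.18 (limma adjusted p = 0.0931). The 7 oligodendrocyte precursor markers, which include Pdgfra and Sox10, summed to 8855 ± 886 normalized counts in NP24 libraries, 11120 ± 2039 in Tβ4 libraries, 8356 ± 521 in Tβ10 libraries and 10964 ± 1125 in controls; their part in the Cspg4 values was not tested.

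Abcc9 encodes the sulfonylurea receptor subunit of the potassium channel of pericytes (chromosome 6, bases 142587862 to 142702315, minus strand). It had 1.85, 15.99, 8.12 and 4.45 normalized counts in NP24 libraries, 227, 36.3, 32.4 and 11.8 in Tβ4 libraries, 8.04, 5.55, 12.6 and 22.2 in Tβ10 libraries, and 8.27, 3.75, 17.7 and 56.5 in controls. One Tβ4 library lay far above the rest, and the other 3 lay within the range of the controls. The Tβ4 mean was 76.8 ± 101 with that library and 26.9 ± 13.2 without it (SD, n = 3), against 21.6 ± 24.02 in controls. The log2 differences were -2.64 between NP24 and Tβ4 (limma adjusted p = 0.108) and 1.90 between Tβ4 and Tβ10 (limma adjusted p = 0.344). Without Tβ4 library 1 they were -1.85 (adjusted p = 0.389) and 1.11 (0.782). The antisense gene 5330439B14Rik shares 158 of its exon bases (1.89%).

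Vtn encodes vitronectin, an adhesive glycoprotein that brain pericytes secrete (chromosome 11, bases 78499091 to 78502324, plus strand). It had 0.926, 1.07, 8.12 and 1.78 normalized counts in NP24 libraries, 31.7, 4.54, 15.2 and 8.28 in Tβ4 libraries, 0.536, 4.44, 1.80 and 1.71 in Tβ10 libraries, and 10.6, 4.68, 7.25 and 0 in controls. The Tβ4 libraries lay above all Tβ10 libraries, the nearest pair holding 4 reads each. With 101 reads in the whole series it did not reach the minimum of 10 normalized counts in 4 libraries. Fitted without that filter, it differed by 2.19 on the log2 scale between Tβ4 and Tβ10 (limma adjusted p = 0.436).

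Of the endothelial genes, Pecam1 was the best detected. It encodes the adhesion molecule CD31 of endothelial junctions (chromosome 11, bases 106654217 to 106750628, minus strand). NP24 libraries had 33.4, 86.3, 74.2 and 71.2 normalized counts, Tβ4 libraries had 122, 69.3, 25.5 and 78.1, Tβ10 libraries had 32.7, 17.8, 44.1 and 29.0, and controls had 62.6, 58.0, 83.0 and 73.9. The Tβ10 libraries lay below all controls, while NP24 and Tβ4 libraries overlapped with them. The log2 difference from controls was -0.13 for NP24, -0.10 for Tβ4 and -1.20 ± 0.35 for Tβ10 (interval -1.94 to -0.45, limma adjusted p = 0.153). Between NP24 and Tβ10 libraries Pecam1 differed by 1.06 on the log2 scale (interval 0.20 to 1.93, limma adjusted p = 1.00).

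Flt1 and Kdr encode VEGF receptors 1 and 2 (chromosome 5, bases 147561604 to 147726011 and bases 75932827 to 75978458, both minus strand). Flt1 had 0.926, 22.4, 19.7 and 24.01 normalized counts in NP24 libraries, 235, 48.8, 36.6 and 28.4 in Tβ4 libraries, 22.5, 13.3, 28.8 and 46.0 in Tβ10 libraries, and 30.7, 35.6, 25.0 and 88.7 in controls. The NP24 libraries lay below all controls, and Tβ4 library 1 stood above all others. Flt1 differed from controls by -1.71 in NP24 libraries (interval -3.16 to -0.27, limma adjusted p = 0.205), 0.57 in Tβ4 libraries and -0.63 in Tβ10 libraries. NP24 library 1 held a single Flt1 read, and without it the NP24 difference was -0.82 (adjusted p = 0.455). Without control 4, the highest control, the Tβ10 difference was -0.25. Without Tβ4 library 1 the Tβ4 difference was -0.093. Kdr had 1.85, 0, 4.64 and 8.89 normalized counts in NP24 libraries, 56.1, 5.68, 2.76 and 5.91 in Tβ4 libraries, 0, 4.44, 10.8 and 27.3 in Tβ10 libraries, and 11.8, 0.936, 0.806 and 3.48 in controls, groups that overlapped throughout. The Tβ4 mean of Kdr was 17.6 ± 25.7 with library 1 and 4.78 ± 1.76 without it (SD, n = 3), against 4.26 ± 5.18 in controls.

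Counted over the genes that passed the filter, 2 of 6 vascular genes were lower in NP24 libraries than in controls at an adjusted p under 0.05, where 2.63% of all 21774 genes tested passed in either direction and 1.47% as lower. In Tβ10 libraries 2 of 7 were lower, where 0.633% of 21960 genes passed and 0.533% as lower. In Tβ4 libraries 0 of 7 passed in limma (0% of 22205 genes), 3 of 7 had an unadjusted p under 0.05, edgeR called 0 of them and DESeq2 called 1, Rgs5. The authors' deposited table gives Tβ4 an adjusted p of 0.0128 for Rgs5 (log2 fold change 1.72) and 0.0344 for Pdgfrb (0.96), with 0.569% of its genes under 0.05. These 3 comparisons share the same 4 controls. Their median log2 differences over the vascular genes tested were -0.55 for NP24, 0.57 for Tβ4 and -0.63 for Tβ10, and the medians over all genes tested were 0.00 in each.

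Between peptides, 2 of 8 were lower in NP24 than in Tβ4 libraries, where 2.09% of 24232 genes passed and 1.65% as lower. Between Tβ4 and Tβ10, 2 of 8 were higher in Tβ4, where 1.35% passed and 1.05% as higher. Between NP24 and Tβ10, 0 of 8 passed in limma, edgeR or DESeq2 (0% of 24232 genes), and 1, Pecam1, had an unadjusted p under 0.05. The share of all genes tested whose libraries did not overlap, in the direction of the members, was 4.77% for NP24 below controls (Rgs5, Pdgfrb and Flt1), 2.26% for Tβ4 above controls (Rgs5 and Pdgfrb) and 3.95% for Tβ10 below controls (Rgs5, Pdgfrb and Pecam1). It was 4.65% for NP24 below Tβ4 (Rgs5, Pdgfrb, Notch3 and Flt1), and 4.02% for Tβ4 above Tβ10 (Rgs5, Pdgfrb, Notch3 and Cspg4). Vtn also lay higher in all Tβ4 than in all Tβ10 libraries, but it did not pass the filter and is outside that share. Between NP24 and Tβ10 all 10 overlapped, where 2.11% of genes did not.

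**Figure D3:**
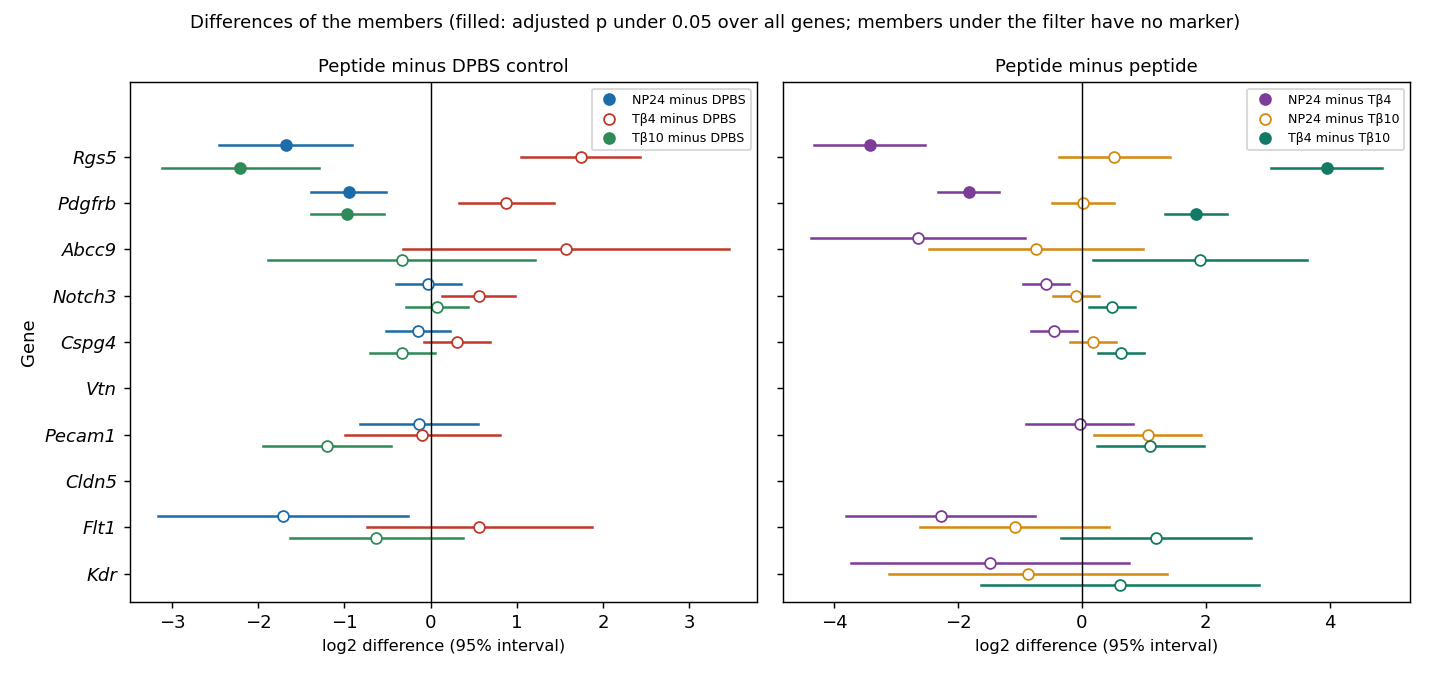
Log2 differences of the vascular genes with 95% intervals, for each peptide minus DPBS control (left) and for pairs of peptides (right). Filled points have a limma adjusted p under 0.05 over all genes, and genes under the filter on low values have no point. Filled points occur for Rgs5 (-3.42 to 3.95) and Pdgfrb (-1.83 to 1.84).

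The calls against controls depended on the fit more than those between peptides. For NP24, Rgs5 lost its call without NP24 library 3 (adjusted p = 0.0726), control 1 (0.119) or control 4 (0.0553), Pdgfrb lost its call without control 1 (0.0649) or control 4 (0.0529), and both lost it when the 16 libraries were fitted together (0.0861 and 0.0805) and when the share of mitochondrial ribosomal RNA entered as a covariate (0.991 for both). For Tβ10, Rgs5 lost its call without Tβ10 library 4 (0.0942), control 1 (0.170), control 3 (0.0669) or control 4 (0.120). Pdgfrb lost its Tβ10 call without Tβ10 library 3 (0.0965), Tβ10 library 4 (0.0503) or any of controls 1 to 4 (0.0643 to 0.135). For Tβ4, leaving out library 2 brought both past the threshold, Rgs5 at 2.00 (limma adjusted p = 0.00218) and Pdgfrb at 1.03 (0.0343). The NP24 to Tβ4 and Tβ4 to Tβ10 calls of both genes held in 8 of 8 fits that left out 1 library. With the mitochondrial share as a covariate, the NP24 to Tβ4 differences were -2.85 for Rgs5 (adjusted p = 0.0640) and -1.49 for Pdgfrb (0.0820), and the Tβ4 to Tβ10 difference of Pdgfrb was 1.51 (0.0885). With the same covariate the Tβ10 differences from controls were -1.40 for Rgs5 (adjusted p = 0.602) and -1.14 for Pdgfrb (0.485). The NP24 differences from controls were then -1.21 for Rgs5 and -0.96 for Pdgfrb. Mitochondrial shares did not overlap between NP24 libraries (5.98 to 8.12%) and controls (9.32 to 14.2%), so that fit could hardly separate the share from the group. The NP24 shares also lay below all Tβ4 shares (8.25 to 24.3%), so the same limit bears on the NP24 to Tβ4 comparison.

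Among further mural genes, Acta2 was lower in NP24 and in Tβ10 libraries. Acta2, which encodes smooth muscle actin, averaged 16.7 ± 19.8 normalized counts in NP24 libraries, 203 ± 74.5 in Tβ4 libraries, 26.5 ± 16.8 in Tβ10 libraries and 124 ± 59.0 in controls (SD, n = 4). It was lower than in controls with NP24 (log2 difference -3.19, limma adjusted p = 0.00352), although the NP24 range (5.797 to 46.3) reached into that of the controls (44.9 to 177), and with Tβ10 (-2.22, limma adjusted p = 0.0361). The NP24 call held without any 1 library. The Tβ10 call was lost without Tβ10 library 3 (adjusted p = 0.0965) or 4 (0.131), or control 1 (0.225), 3 (0.116) or 4 (0.129). Anpep, which encodes the aminopeptidase CD13 of pericytes, had 0 to 6.96 normalized counts in NP24 libraries and 16.9 to 60.9 in controls. It passed the filter through the 4 controls alone, so only a lower call was open to it, and its difference of -3.41 (limma adjusted p = 0.0318) is given as a description; without NP24 library 1 its adjusted p was 0.0588. Of 20 listed mural genes outside the 10, 2 of the 9 tested passed for NP24, both lower (Acta2 and, through that filter, Anpep), 1 of 9 for Tβ10, lower, and 0 of 12 for Tβ4, where 2 had an unadjusted p under 0.05, edgeR called 0 and DESeq2 called 1. Over all genes tested, 1.47% passed as lower for NP24 and 0.533% for Tβ10. The medians of these mural genes were -0.39 for NP24, 0.75 for Tβ4 and -0.57 for Tβ10. Between peptides, 3 of 13 were lower in NP24 than in Tβ4 libraries (Acta2, Tbx18 and Anpep), where 1.65% of all genes passed as lower. Another 3 of 13 calls were higher in Tβ4 than in Tβ10 libraries (Acta2, Tagln and Foxf2), where 1.05% passed as higher. No NP24 library reached 10 normalized counts for Tbx18 (at most 4.63) or Anpep (6.96), and no Tβ10 library did for Foxf2 (1.80). Within these pairs only that direction was open to Tbx18, Anpep and Foxf2, so their calls are given as a description. Tbx18, Tagln and Foxf2 were named after their values were seen. Without Tβ4 library 1, Acta2 (adjusted p = 0.0510), Tagln (0.0891) and Foxf2 (0.192) lost the Tβ10 comparison and Anpep (0.0894) the NP24 one; Foxf2 passed in 1 of 8 fits that left out 1 library.

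Further endothelial genes gave fewer calls. Slc2a1, which encodes the glucose transporter GLUT1 of the barrier and of other cells, averaged 270.4 ± 82.4 normalized counts in NP24 libraries, 482 ± 46.5 in Tβ4 libraries, 297 ± 43.4 in Tβ10 libraries and 657 ± 118 in controls. It was lower than in controls with NP24 (-1.32, limma adjusted p = 0.000957) and with Tβ10 (-1.14, limma adjusted p = 0.00178), and its Tβ4 difference was -0.43 (limma adjusted p = 0.589). It was the single call among the 14 tested of 25 listed endothelial genes for NP24 and for Tβ10, and 0 of 14 passed for Tβ4 (1 at an unadjusted p under 0.05, 0 with edgeR or DESeq2). Eng, which encodes the TGF-β co-receptor endoglin and was named after its values were seen, was lower in NP24 than in Tβ4 libraries (-3.23, limma adjusted p = 0.0130), as was Slc2a1 (-0.89, limma adjusted p = 0.0217). Without Tβ4 library 1 these had adjusted p = 0.0808 and 0.0823, and Slc2a1 also lost the call without NP24 library 1 (0.0701), NP24 library 4 (0.0519) or Tβ4 library 4 (0.0792). Lower calls took 1.47% of all genes tested for NP24, 0.533% for Tβ10 and 1.65% for NP24 against Tβ4. The list medians were -0.37 for NP24, 0.20 for Tβ4 and -0.25 for Tβ10.

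Ligands of the receptors were detected unevenly. Over the 16 libraries, Vegfa averaged 1372 normalized counts against 44.2 for Flt1, whereas Pdgfb, a ligand of Pdgfrb, averaged 44.5 against 218 for Pdgfrb. These counts are not corrected for exon length, so they do not give the ratio of ligand to receptor RNA. Vegfa, which encodes the VEGF ligand of Flt1 and Kdr, averaged 1020 ± 227 normalized counts in NP24 libraries, 1614 ± 194 in Tβ4 libraries, 1021 ± 102 in Tβ10 libraries and 1833 ± 206 in controls. The NP24 and Tβ10 libraries lay below all controls. Vegfa was lower with NP24 (-0.86, limma adjusted p = 0.000934) and with Tβ10 (-0.84, limma adjusted p = 0.00178), while its Tβ4 difference was -0.18 (limma adjusted p = 0.873). Angpt1, which encodes a ligand of the endothelial receptor Tie2, was higher in NP24 libraries, at 1191 ± 136 against 839 ± 18.8 in controls (0.50, limma adjusted p = 0.0160). That call was lost without NP24 library 1 (adjusted p = 0.0575) or 3 (0.0585), or control 1 (0.0682) or 2 (0.0529), whereas those of Slc2a1 and Vegfa against controls held without any 1 library. Of 17 ligands and co-receptors, all tested, 1 was higher for NP24 (1.16% of all genes tested) and 1 lower (1.47%). For Tβ10, 1 was lower (0.533%), and 0 passed for Tβ4 (3 at an unadjusted p under 0.05, 0 with edgeR or DESeq2). The shares of all genes were 1.65% lower in NP24 than in Tβ4 and 1.05% higher in Tβ4 than in Tβ10 libraries. Between peptides 2 of 17 were lower in NP24 than in Tβ4 libraries and 2 of 17 higher in Tβ4 than in Tβ10 libraries, Vegfa and Nrp1 in each case; Nrp1, which encodes the VEGF co-receptor neuropilin 1, was named after its values were seen. Leaving out 1 library, Nrp1 held in 8 of 8 and 7 of 8 fits, and Vegfa in 6 of 8 and 3 of 8, with a highest adjusted p of 0.0756 and 0.106, both without Tβ4 library 1. Over the mural, endothelial and ligand lists, 20 calls were made in the 6 comparisons, and with the mitochondrial ribosomal RNA share as a covariate all 20 were lost (adjusted p = 0.130 to 0.991). The same covariate left 0 of 21774 genes past the threshold for NP24 (572 without it), 0 of 21960 for Tβ10 (139), 7 of 24232 for NP24 against Tβ4 (507) and 10 for Tβ4 against Tβ10 (326). With it, Vegfa differed from controls by -0.69 in NP24 and -0.75 in Tβ10 libraries, Slc2a1 by -0.75 and -0.76, and Acta2 by -3.54 and -1.02. Of 5 Notch target genes 0 passed for any peptide in limma, edgeR or DESeq2 and 0 had an unadjusted p under 0.05 against controls; the smallest unadjusted p values were 0.0543 for Hey2 with Tβ4 (1.13, limma adjusted p = 0.722) and 0.0939 for Nrarp with NP24 (-0.55, limma adjusted p = 0.391).

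Some markers of other cell types were lower in the same groups. The 12 fibroblast and meningeal markers summed to 1480 ± 88.7 normalized counts in NP24 libraries (range 1367 to 1567), 3888 ± 1142 in Tβ4 libraries (2808 to 5460), 1581 ± 131 in Tβ10 libraries (1451 to 1733) and 2420 ± 232 in controls (2139 to 2706). Fn1, which encodes fibronectin, made up most of that sum, at 1057 ± 85.5 in NP24 libraries, 2047 ± 221 in Tβ4 libraries, 1158 ± 95.2 in Tβ10 libraries and 1490 ± 216 in controls. Of those tested, 6 of 9 were lower in NP24 and 4 of 8 in Tβ10 libraries than in controls. For Tβ4, 0 of 9 passed (5 at an unadjusted p under 0.05, 0 with edgeR, 3 with DESeq2). Lum had 0 reads in 9 of the 16 libraries. Beside the counts of this paragraph, 1.47% of all genes tested were called lower and 1.16% higher for NP24. For Tβ10 these shares were 0.533% and 0.1%. The 13 microglia and macrophage markers summed to 1609 ± 69.8 in NP24 libraries (1514 to 1666), 2481 ± 577 in Tβ4 libraries (1829 to 3234), 1678 ± 215 in Tβ10 libraries (1384 to 1903) and 2023 ± 177 in controls (1859 to 2273), with 4 of 9 lower for NP24, 2 of 11 lower for Tβ10 and 0 of 12 for Tβ4 (2 at an unadjusted p under 0.05, 0 with edgeR or DESeq2). Cx3cr1 made up most of the microglia and macrophage sum, at 1362 in NP24, 1404 in Tβ4, 1399 in Tβ10 and 1304 in control libraries. The 8 astrocyte markers summed to 9952 ± 307 in NP24 libraries, 11906 ± 1335 in Tβ4 libraries, 9945 ± 1458 in Tβ10 libraries and 8369 ± 851 in controls. Of them 1 of 8 was higher for NP24 and for Tβ10, Aqp4, which encodes the water channel of astrocyte endfeet (1.70, limma adjusted p = 0.000934, and 1.67, limma adjusted p = 0.01005), and 0 of 8 passed for Tβ4 (5 at an unadjusted p under 0.05, 0 with edgeR, 2 with DESeq2). Of the 7 oligodendrocyte precursor markers 2 were lower for NP24, Olig2 (-0.67, limma adjusted p = 0.01996) and Lhfpl3 (-0.46, limma adjusted p = 0.0220). The 10 vascular genes summed to 873 ± 66.7 in NP24 libraries, 2014 ± 557 in Tβ4 libraries, 818 ± 86.7 in Tβ10 libraries and 1167 ± 246 in controls. The part of these cells in the values of Rgs5 and Pdgfrb was not tested.

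**Figure D4:**
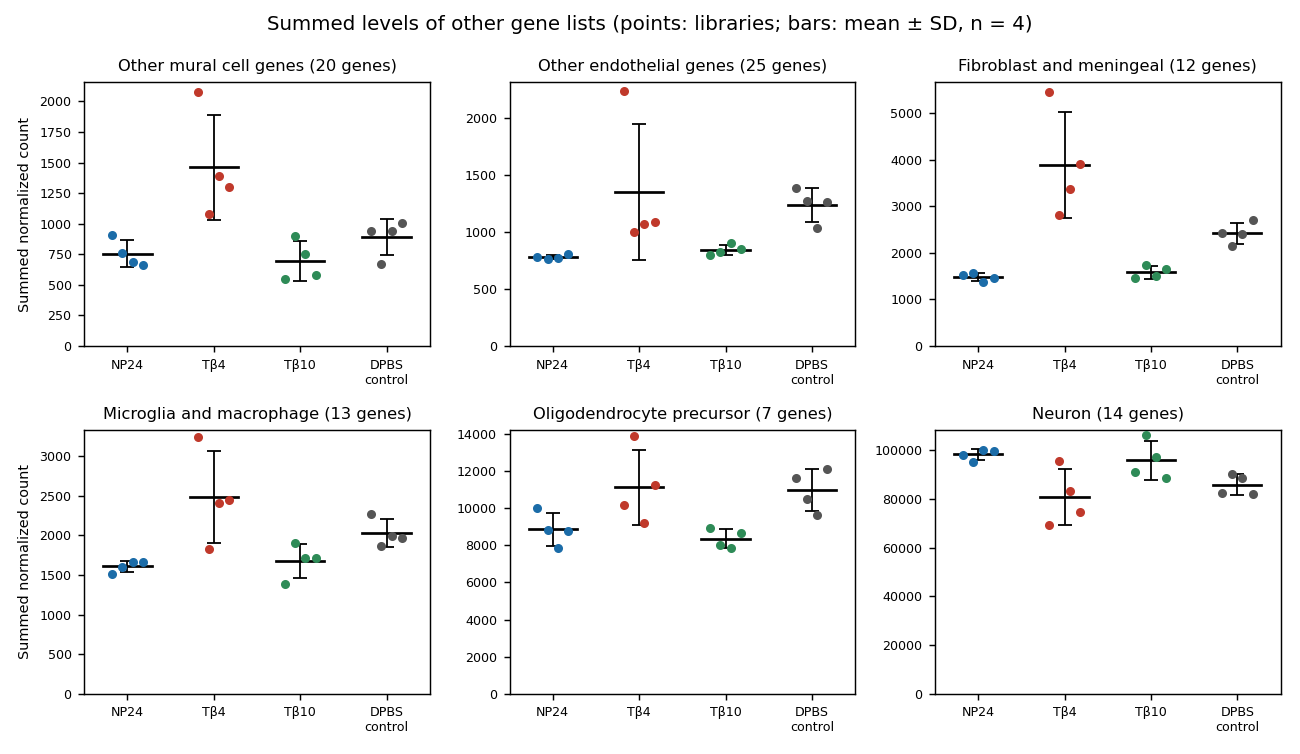
Summed normalized counts of 6 other gene lists in each library (points), with group mean ± SD (bars, n = 4); groups run NP24, Tβ4, Tβ10 and DPBS control from left to right. Fibroblast and meningeal markers average 3888 in Tβ4 libraries and 2420 in controls, and neuron markers average 80726 and 85835.

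Genes with the pattern most like each vascular gene were taken by Pearson's r of log2(value + 1) over the 16 libraries among 12585 genes averaging at least 50 normalized counts; the libraries share depth and the 4 groups, so r is a description. Rgs5 was closest to Ccn1 (r = 0.958), Col3a1 (0.935) and Col1a1 (0.928), which encode a matricellular protein and fibrillar collagens. Pdgfrb was closest to Col4a1 (0.956), a basement membrane collagen, then Eif2ak2 (0.952) and Slc12a7 (0.945). Notch3 was closest to Dio2 (0.875), Bub1 (0.865) and Timeless (0.837), and Cspg4 to Celsr1 (0.914), Cmtm4 (0.869) and Notch1 (0.858). Pecam1 had lower values, with Arhgef6 (0.864), Rassf8 (0.810) and Dhrs3 (0.773). Among the 10 genes themselves, Rgs5 and Pdgfrb had r = 0.878 and Abcc9 and Flt1 had r = 0.836 (n = 16 libraries), the last pair sharing Tβ4 library 1 as their highest library.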

How the data were processed

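Total RNA was purified with RNeasy Micro columns and libraries were prepared with a SMARTer stranded total RNA kit, per the labels' protocols. Per the submitters' processing notes, the tools named are FastQC, HISAT, HISAT2, featureCounts and DESeq2, with build GRCm38; their order, versions and strand setting are not given in the sources used here. The deposited library values are signal: the authors' gene counts after division by a library's size factor. The 3 tables repeat 1 set of 16 columns (equal within 4.9e-07). Whole reads were recovered for 100% of values at a tolerance of 0.01 reads. The deposited tables also hold the authors' log2 fold changes, with a score (Wald statistic) and p-values.

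The vascular genes and the gene lists were chosen with earlier results of these data known. Tests were limma-trend (limma 3.58.1, R 4.3.3) with a pseudocount of 1 on the log2 scale. A gene was tested where 4 or more libraries of the fit reached 10 normalized counts, with Benjamini-Hochberg adjustment over all genes and a threshold of 0.05. Fold changes are on that log2 scale, which understates changes of low genes. A peptide and control were fitted in their 8 libraries, and pairs of peptides in all 16. The plan for normalized values applied. Other settings were the count tests of edgeR 4.0.16 and of DESeq2 1.42.0 (recovered reads), TMM and library size scaling, pseudocounts of 0.1 and 10, no filter, a replicate block, mitochondrial ribosomal RNA share as covariate, another set of libraries in the fit, and leaving out each library. The fits were tested on simulated data.

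Named by rule were the 10 vascular genes, up to 4 genes per direction of each vascular and signalling list with the smallest adjusted p under 0.05 against control (otherwise the 2 smallest p), and the 3 genes most like each member averaging 50 normalized counts, leaving out unnamed models. Libraries of a group differed beyond counting error (lowest chi-square per degree of freedom 8.94). Gene positions are from GENCODE M21 and promoters from RefSeq.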

Additional observations from a re-analysis of the deposited data

Results flagged for a closer look

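In groups of 4 libraries, a library is listed here where its gap to the nearest of the others exceeded Dixon's 95% critical value as a share of the group's range. Of 38 combinations of gene and group looked at, 7 met this, each at the high end of its group. The nominal rate of about 1 in 20 holds for normally spread values. These are untransformed counts, several of them low, so the 7 cannot be set against that rate. Tβ4 library 1 stood above the other Tβ4 libraries for Abcc9 (227 normalized counts), Flt1 (235) and Kdr (56.1). NP24 library 3 stood above its group for Vtn (8.12). Control library 4 stood above the other controls for Pdgfrb (262) and Flt1 (88.7), and control library 3 held the 2 control reads of Cldn5 (1.61 normalized counts). The part of cell makeup or RNA quality in these values was not tested.

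In the direct tests, Rgs5 and Pdgfrb differed between Tβ4 libraries and those of NP24 or Tβ10, but not detectably between NP24 and Tβ10 libraries. NP24 and Tβ4 libraries differed by -3.42 on the log2 scale for Rgs5 and -1.83 for Pdgfrb. Tβ4 and Tβ10 libraries differed by 3.95 for Rgs5 and 1.84 for Pdgfrb. With the mitochondrial share as a covariate, only the Rgs5 difference between Tβ4 and Tβ10 libraries kept a limma adjusted p under 0.05.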

How the results depend on the processing

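The number of vascular genes past the threshold was 2 for NP24 against controls, and 0 with the mitochondrial share as covariate or all 16 libraries in 1 fit (0 to 2 leaving out 1 library). For Tβ10 it was 2, and 1 with library size scaling, 1 with the replicate block (Pdgfrb adjusted p = 0.0573), 0 with the covariate and 1 with all 16 libraries (0 to 2 leaving out 1 library). For Tβ4 it was 0, 1 with DESeq2 and 1 with the replicate block (Rgs5 adjusted p = 0.0402), and 0 to 2 leaving out 1 library. Between NP24 and Tβ4 it was 2, 5 with DESeq2, 0 with the covariate and 2 to 3 leaving out 1 library. The further DESeq2 calls were Abcc9 (adjusted p = 0.00355), Notch3 (0.0387) and Flt1 (0.0150). Between Tβ4 and Tβ10 it was 2, 4 with DESeq2, 1 with the covariate and 2 to 3 leaving out 1 library. DESeq2 added Abcc9 (adjusted p = 0.0315) and Cspg4 (0.0441) there. NP24 against Tβ10 stayed at 0 in every fit run. Causes were not tested. Of 436 gene values under other settings, 407 kept direction and side of the threshold, as did 305 of 342 leaving out 1 library. Most of these values belong to uncalled genes that stayed uncalled. The calls of Rgs5 and Pdgfrb were lost in 12 values under other settings and in 15 leaving out 1 library.

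Values that changed sign were uncalled. With library size scaling, Notch3 was 0.029 (NP24 minus control), Pdgfrb -0.029 (NP24 minus Tβ10) and Pecam1 0.10 (NP24 minus Tβ4). With the covariate, Notch3 was -0.058 (Tβ10 minus control), Flt1 -0.027 (Tβ4 minus control), Pecam1 0.25 and Kdr 0.20 (NP24 minus Tβ4), and Kdr -1.07 (Tβ4 minus Tβ10). Pecam1 in Tβ4 against controls was 0.073 with edgeR and 0.080 with DESeq2. Leaving out 1 library, ranges that crossed 0 were, for NP24 minus control, -0.12 to 0.088 (Notch3), -0.29 to 0.021 (Cspg4) and -0.29 to 0.16 (Pecam1), and, for Tβ10 minus control, -0.022 to 0.17 (Notch3). For Tβ4 minus control they were -0.40 to 0.34 (Pecam1) and -0.093 to 0.95 (Flt1). For NP24 minus Tβ10 they were -0.084 to 0.13 (Pdgfrb) and -0.18 to 0.013 (Notch3), for NP24 minus Tβ4 -0.47 to 0.27 (Pecam1), and for Tβ4 minus Tβ10 -0.29 to 1.08 (Kdr).

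Genes of all kinds past the threshold ranged, under settings that left out no replicate, from 0 to 1178 for NP24 (572 as reported), 0 to 423 for Tβ10 (139), 0 to 75 for Tβ4 (0), 7 to 1172 for NP24 against Tβ4 (507) and 10 to 807 for Tβ4 against Tβ10 (326). Leaving out 1 library they ranged from 106 to 760, 28 to 315, 0 to 354, 104 to 1392 and 87 to 1052 in the same comparisons. Library size scaling moved the median of all genes to 0.13 for NP24 minus Tβ4 and -0.18 for Tβ4 minus Tβ10. Same-numbered libraries of different groups did not deviate together (r from -0.30 to 0.11, over 0.1 in 1 of 24 pairs, and highest for the own number in 5 of 24). No pairing by number was detected, although such a check cannot exclude one. Genes with few reads (Vtn, Kdr, Cldn5) are limited by depth.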
